A study of Mus musculus with 6 samples.

Results

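The genotype difference was taken at each of 3 times by pairing the library of naive CD4+ T cells labelled Zak-deficient with the wild-type (WT) library of the same time, and the genes and gene groups that stood on 1 side of WT at all 3 times were described. All 6 libraries of the series entered, 3 per genotype, and 10347 of the 18446 genes in the deposited table averaged 1 FPKM or more over them. FPKM counts the sequenced fragments of a gene, corrected for the length of its transcripts and for the size of the library. Just inside that limit lay Ascl2 with a mean of 1 FPKM and just outside it Rpl39l with 0.993.

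The cells were CD44lo CD62Lhi CD4+ T cells, taken by flow sorting from the spleens and lymph nodes of C57BL/6 mice 6 to 8 weeks old. The groups were WT or Zak-/- cells, each either unstimulated (0 h) or stimulated with antibodies against CD3 and CD28 for 6 h or 48 h. The labels also describe a T cell-restricted deficiency, which leaves the type of deletion and any Cre driver unsettled here. Each group held 1 library, and the labels do not say whether the libraries of a genotype came from the same or separate mice. The 3 times are therefore the only repeats of the genotype difference, and its spread mixes biological change over time with differences between single libraries.

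Zak, encoded by Map3k20, is a MAP kinase kinase kinase that senses stalled or collided ribosomes and passes the signal to MAP kinase kinases, which switch on the stress kinases p38 and JNK. In T cells, engagement of the antigen receptor and CD28 also drives MAP kinase pathways, and with them the AP-1 and NF-kB factors that start the activation programme. Interferon-stimulated genes, described further on, are switched on by signals from the interferon receptors and hold GTPases of cell-autonomous defence, nucleic acid sensors and antiviral enzymes.

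Map3k20 stood at 0.17, 0.19 and 1.35 FPKM in WT at 0, 6 and 48 h, and at 0.10, 0.10 and 1.61 FPKM in the libraries labelled Zak-deficient. The level was low in all 6 libraries and did not separate the labels, and a gene-level value cannot show whether an exon is missing. The CD4 T cell markers summed to between 2498 and 2858 FPKM over all 6 libraries, with Cd4 itself between 218 and 357 FPKM, so the labelled cell type was present throughout. Sums of all FPKM lay between 496045 and 546113 per library. FPKM carry no read total, so the depth behind each value is unknown.

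Most genes did not keep a side. Of the 10347 genes, 1146 were higher in the library labelled Zak-deficient at each time (11.1%), 1692 were lower at each time (16.4%) and 7509 changed side (72.6%). After scaling every library to a common sum, the same counts were 14.06% higher and 12.75% lower, so the excess of lower genes depended on the scaling. The median log2 difference over all genes was -0.01 at 0 h, -0.02 at 6 h and -0.01 at 48 h, and the scalings moved it by less than 0.1. The differences were of unlike width, with a standard deviation over genes of 0.18 at 0 h, 0.23 at 6 h and 0.34 at 48 h on the log2(FPKM+1) scale. By the median absolute difference, 6 h was the widest, at 0.14 against 0.08 at 0 h and 0.09 at 48 h.

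Across the 10347 genes, the differences at 0 h and 48 h had a Pearson r of 0.26, those at 0 h and 6 h 0.13, and those at 6 h and 48 h 0.04. The pairs share no library, but genes are not independent replicates and no p is given. The Spearman correlations were 0.10, 0.08 and 0.02 in the same order. At 6 h the difference also followed the GC content of the transcripts, with a Spearman correlation of 0.47, against -0.12 at 0 h and 0.11 at 48 h, and the part of GC content in the results at 6 h was not tested beyond the centring given further on. Of the sum of squares over all genes, time took 94.6%, the genotype difference common to the 3 times 2.21%, and the change of that difference between times 3.17%. Per degree of freedom, the common part was 1.40 times the changing part.

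**Figure D1:**
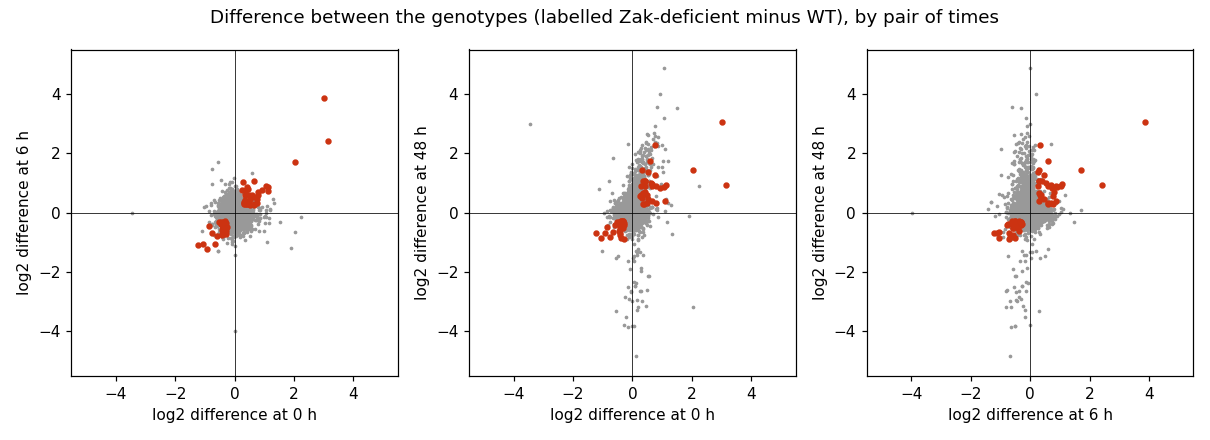
Log2(FPKM+1) difference, labelled Zak-deficient minus WT, of each of 10347 genes at 1 time against another; red points are the 63 genes that differed by 1.2-fold or more on 1 side at each time. The grey cloud shows little common slope, most of it between 0 h and 48 h (r = 0.26), and widens along the 48 h axis.

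A small set of genes stood apart at every time. By 1.2-fold or more on the FPKM+1 scale, 33 genes were higher at each of the 3 times (0.319%) and 30 were lower (0.29%). At 1.5-fold or more, 9 were higher and 5 lower at each time. With limma, fitted with time as a block, and Benjamini-Hochberg adjustment over all 10347 genes, 2 genes were called higher (0.0193%) and 1 lower (0.00966%) at an adjusted p under 0.05. An unadjusted p under 0.05 was found for 505 genes, or 4.88% of those tested. For a single gene the exact sign-flip test over 3 pairs cannot give a two-sided p below 0.25, so the calls rest on limma's pooling of the spread over genes.

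The gene furthest apart was Eif3j2, a copy of Eif3j1, which encodes a loosely bound subunit of the translation initiation factor eIF3. Eif3j2 stood at 1.11, 0.62 and 1.73 FPKM in WT at 0, 6 and 48 h, and at 15.95, 22.74 and 21.94 FPKM in the libraries labelled Zak-deficient. All 3 of the latter lay above all 3 WT values, with a mean log2 difference of 3.32 (SE 0.18; limma, Benjamini-Hochberg adjusted p = 0.0129). Eif3j1 (chromosome 2, 122028580 to 122053632, mm10) went the other way. It stood at 22.44, 56.74 and 56.43 FPKM in WT and at 10.16, 26.69 and 30.98 FPKM in the libraries labelled Zak-deficient, a mean log2 difference of -0.99 (SE 0.07; limma, Benjamini-Hochberg adjusted p = 0.0362). At each time the value was lower than in WT, although the 2 ranges overlapped across times.

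The 2 genes are near-identical in part: 95.2% of the 24-base sequences of Eif3j2 transcripts also occur in Eif3j1, and 38.6% of those of Eif3j1 occur in Eif3j2. How the submitters' counting split fragments between them cannot be seen in FPKM, so both values are uncertain. The sum of the 2 genes was 23.55, 57.36 and 58.16 FPKM in WT and 26.11, 49.43 and 52.92 FPKM in the libraries labelled Zak-deficient. These sums differed by 1.11-fold, 0.862-fold and 0.91-fold, much less than either gene alone. What differed was the share given to the copy, which was 4.71%, 1.08% and 2.98% in WT and 61.1%, 46.0% and 41.5% in the libraries labelled Zak-deficient.

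Capn11, which encodes a calpain, a calcium-dependent protease, was the other gene called higher. It lies on chromosome 17 (45630191 to 45659709, mm10) and shares 0% of its 24-base sequences with another gene. Its level was 2.09, 1.1 and 0.30 FPKM in WT at 0, 6 and 48 h, and 11.59, 5.88 and 2.54 FPKM in the libraries labelled Zak-deficient. Its level was lower at each later time in both genotypes, and at each time the library labelled Zak-deficient lay above WT, with a mean log2 difference of 1.73 (SE 0.13; limma, Benjamini-Hochberg adjusted p = 0.0362). Cdk5rap1, an enzyme that modifies mitochondrial transfer RNAs, came next. It stood at 6.39, 6.35 and 5.75 FPKM in WT and at 13.09, 11.35 and 11.06 FPKM in the libraries labelled Zak-deficient, so the groups did not overlap (mean log2 difference 0.84, SE 0.08; limma, Benjamini-Hochberg adjusted p = 0.0789).

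**Figure D2:**
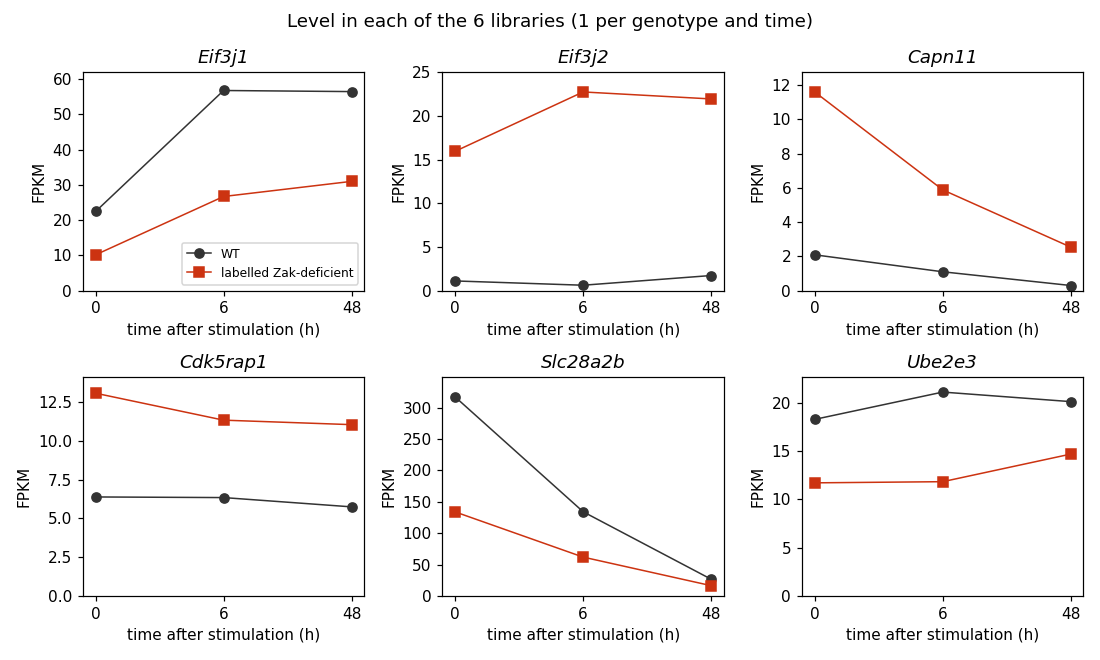
FPKM of 6 genes in each of the 6 libraries, 1 point per genotype and time; black circles are WT and red squares are labelled Zak-deficient. The red points of Eif3j2 lie between 15.95 and 22.74 FPKM while the WT points stay at 1.73 FPKM or below, and each of the other 5 genes keeps the order of the labels at all 3 times.

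Next came the genes of mean 5 FPKM and above that had the largest difference at their weakest time. They did not pass the limma test and are given by value. Among the higher ones, Xlr3b, of the X-linked lymphocyte-regulated family, stood at 3.95, 3.65 and 2.08 FPKM in WT and at 9.93, 6.64 and 4.89 FPKM in the libraries labelled Zak-deficient. Xlr3b shares 74.1% of its sequence with other genes, mostly Xlr3a, which stayed at 0.51 FPKM or below in all 6 libraries. Inafm2 stood at 6.00, 5.67 and 6.92 FPKM against 14.13, 11.06 and 9.52 FPKM, again without overlap. Sord, the sorbitol dehydrogenase gene, stood at 1.57, 0.94 and 6.5 FPKM in WT against 3.34, 1.69 and 17.15 FPKM. Cers6, a ceramide synthase gene, stood at 8.50, 4.64 and 2.64 FPKM in WT and at 15.45, 8.18 and 3.58 FPKM in the libraries labelled Zak-deficient. For 3 further genes the log2 difference lay between 0.31 and 0.61 at each time. Kcnh6, a voltage-gated potassium channel gene, had log2 differences of 0.31, 0.37 and 0.48, Slc15a2, a peptide transporter gene, 0.48, 0.36 and 0.59, and Hjurp, the chaperone that loads the centromeric histone CENP-A, 0.50, 0.61 and 0.32. Eps8l1, Dzip1 and Samd12 completed these 12 with mean log2 differences of 0.65, 0.60 and 1.12, and Samd12 varied most between times, from 0.32 at 6 h to 2.28 at 48 h.

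Among the lower genes, Slc28a2b, of the concentrative nucleoside transporter family, had the largest difference at its weakest time after Eif3j1. It stood at 317, 134 and 26.56 FPKM in WT and at 134, 61.79 and 16.31 FPKM in the libraries labelled Zak-deficient, a mean difference of -1.004 on the log2 scale (SE 0.11; limma, Benjamini-Hochberg adjusted p = 0.139). Its near copy Slc28a2 was also lower, at 159, 87.56 and 43.68 FPKM against 113, 58.26 and 42.85 FPKM, so the sum of both was 0.518-fold, 0.542-fold and 0.842-fold that of WT. Unlike the Eif3j pair, this pair kept its difference when summed. Ube2e3, a ubiquitin-conjugating enzyme gene, stood at 18.30, 21.13 and 20.14 FPKM in WT and at 11.72, 11.84 and 14.70 FPKM in the libraries labelled Zak-deficient, with no overlap. Nfe2l2, which encodes Nrf2, the main transcription factor of the oxidative stress response, stood at 48.69, 33.93 and 16.18 FPKM against 39.35, 23.32 and 12.49 FPKM. Gimap7, a GTPase gene of lymphocytes, stood at 56.95, 40.70 and 33.35 FPKM against 45.24, 26.83 and 22.87 FPKM. The rest of the 12 were Zfp972, Tgtp1, Ly6a, Cfap74, Dtx3l, Serpinb6a and Slc43a3, with mean log2 differences from -0.78 (Zfp972) to -0.37 (Slc43a3). Tgtp1 encodes an interferon-inducible GTPase of T cells and Dtx3l a ubiquitin ligase that is also interferon-inducible.

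**Figure D3:**
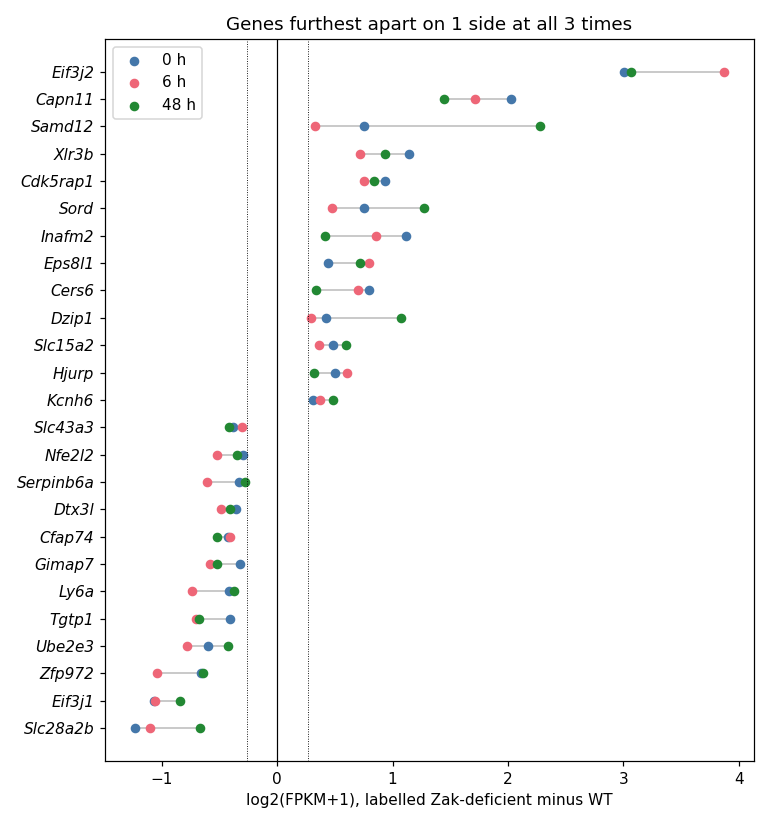
Log2(FPKM+1) difference, labelled Zak-deficient minus WT, at 0, 6 and 48 h for the 25 genes named for their difference at all 3 times; grey bars join the lowest and highest time and dotted lines mark 1.2-fold. Eif3j2 lies furthest to the right at each time, and the lower genes lie between -1.24 and -0.28.

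Of the 63 genes apart by 1.2-fold or more at each time, 13 (20.6%) shared at least 50% of their 24-base sequences with another gene, against 3.32% of the genes tested. Another such copy, Eno1b, was chosen after its values were seen. Eno1b, a copy of the glycolytic enolase gene Eno1, was listed at 0.23, 0 and 0.49 FPKM in WT and at 9.82, 4.32 and 1.83 FPKM in the libraries labelled Zak-deficient. Eno1 itself was far more abundant, and the sum of both differed by 1.04-fold, 0.996-fold and 0.94-fold. Without the genes that share at least 50% of their sequence, 28 genes were higher and 22 lower at each time, and limma called 1 each way.

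The genes apart were spread unevenly over the genome. Chromosome 2, which carries Map3k20, held 15 of the 63 (23.8%), while it held 825 of the 10347 genes tested (7.97%). On chromosome 2, 1.82% of the genes stood apart, against 44 of 9485 genes (0.464%) on all other chromosomes. Among these, chromosome 18 had nearly the same share as chromosome 2, with 4 of 241 genes (1.66%), Eif3j2 and Eno1b among them, and the others lay between 0% and 0.935%. Within 10 Mb of the start of Map3k20, at 72285637 in mm10, 4 of 57 genes stood apart (7.02%), and within 20 Mb 6 of 118 (5.08%). These 6 were Dpp4, Cers6, Nfe2l2, Ube2e3, Tfpi and Slc43a3, of which only Cers6 was higher. The share of chromosome 2 was 24.2% after centring on GC content and transcript length, and 24% without the genes that share at least 50% of their sequence.

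The stretch with the most genes apart lay elsewhere on chromosome 2. Of 513 stretches of 5 Mb that held a gene tested, only the one from 120 to 125 Mb held 3 or more genes apart, with 5 of its 44 genes. Those were Jmjd7, Ttbk2, Eif3j1, Sord and Slc28a2b, between 47.7 and 50.2 Mb beyond Map3k20, and 2 of them were higher and 3 lower. By share of the genes tested it was not the densest. Nearer Map3k20, 2 of 14 genes stood apart from 75 to 80 Mb and 2 of 16 from 80 to 85 Mb. On chromosome 14, 2 of 6 did from 115 to 120 Mb. Inafm2 lay just before them, 46.5 Mb from Map3k20. Further along lay Cdk5rap1 (154222011 to 154373038, mm10), Gm14288 and Zfp972. Both directions were thus found along the chromosome, with 6 genes higher and 9 lower. The genes of this paragraph and the one before that are not named above were taken because they lie on chromosome 2, after their values were seen.

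**Figure D4:**
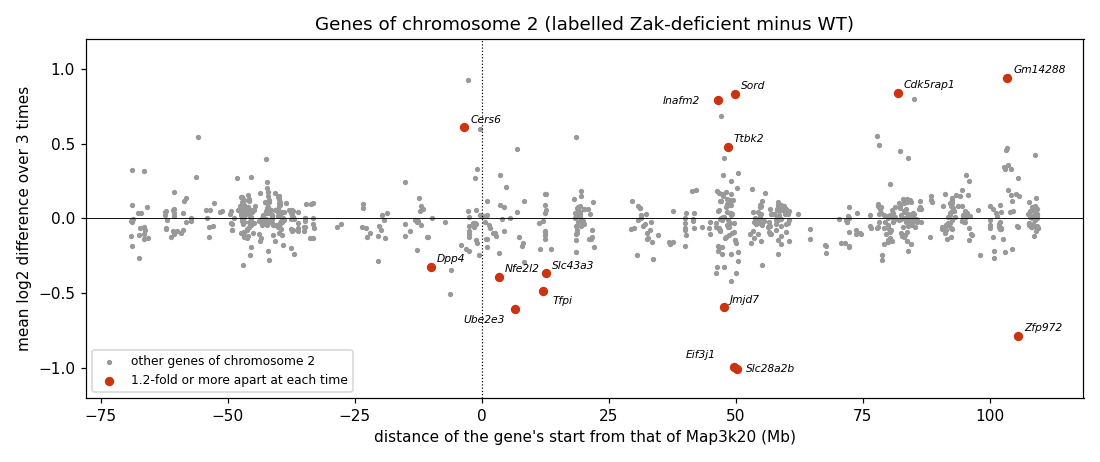
Mean log2(FPKM+1) difference over the 3 times, labelled Zak-deficient minus WT, of the 825 tested genes of chromosome 2 against the distance of their start from that of Map3k20 in Mb; red points are the 15 genes apart by 1.2-fold or more at each time. The red points begin 9.96 Mb before Map3k20 and gather in a group of 5 between 47.7 and 50.2 Mb beyond it.

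Of 62 gene lists, 59 had at least 5 members among the genes tested. A list was described as alike when its median lay on 1 side of 0 at all 3 times and at least 0.05 log2 from the median of all genes at each. By that rule 3 lists were alike: interferon-stimulated genes and the proteasome, both lower in the libraries labelled Zak-deficient, and B cell markers, which were higher. The lists were chosen with earlier results of these data known, and their counts and medians are a description.

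Interferon-stimulated genes had medians of -0.08, -0.25 and -0.12 log2 at 0, 6 and 48 h over 45 members. Of these, 18 were lower at each time (40%, against 16.4% of all genes and 45% of 20 housekeeping genes), 0 were higher at each time and 27 changed side. The median was further from 0 than that of the housekeeping genes (-0.05, -0.07 and -0.03 log2) at each time, and 3 members were lower by 1.2-fold or more at each time. None of the members passed limma's adjusted threshold. Iigp1, an immunity-related GTPase gene, stood at 1.91, 6.11 and 6.32 FPKM in WT and at 1.41, 3.31 and 2.96 FPKM in the libraries labelled Zak-deficient. Ly6a, a surface antigen gene of activated lymphocytes, stood at 42.81, 39.63 and 8.51 FPKM against 31.71, 23.29 and 6.34 FPKM. Ifit3, of the family that binds viral RNA, stood at 4.86, 3.96 and 0.59 FPKM against 3.75, 2.26 and 0.23 FPKM. In each of these 3 genes the log2 difference was larger at 6 h than at 0 h.

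The values of the next members were chosen after they were seen. The GTPase gene Gbp2 was nearly level at 0 h, with 12.18 FPKM in WT against 11.16 FPKM, and apart at 6 h (24.15 against 14.41 FPKM) and 48 h (107.9 against 65.94 FPKM). Igtp, another immunity-related GTPase gene, stood at 51.07, 61.16 and 56.80 FPKM in WT against 45.38, 46.38 and 37.87 FPKM. Irf1, an interferon-induced transcription factor gene, had log2 differences of -0.02, -0.34 and -0.38. Isg15, a ubiquitin-like modifier gene, did not follow them: it stood at 5.41, 9.15 and 2.02 FPKM in WT and at 7.06, 6.94 and 9.67 FPKM in the libraries labelled Zak-deficient. The list was thus lower as a median and not in every member.

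A motif bound by interferon regulatory factors, GAAANNGAAA on either strand, was looked for in RefSeq promoters of GRCm38.p6, in the 250 bases before each listed transcription start. A gene counted when any of its promoters held a match. Of 45 members, 30 had a promoter in that table. The motif was found in 18 of these 30 (60%), against 3.31% of 8400 tested genes. Counted by promoter and not by gene, it was found in 2.98% of all 32851 promoter windows. It was found in 7 of 10 members that were lower at each time (70%) and in 11 of 20 that changed side (55%). A match is a description of the sequence and shows no binding. The stretches around the matches are shown for 4 members that were lower at each time and for Tgtp1, from the gene's own strand, with the motif or its reverse complement in capitals. Ifit3 (chr19:34583348-34583441, plus strand) holds 2 matches, the first 156 bases before the transcription start used. That start lies within the gene as listed (34583119 to 34588982). Igtp (chr11:58199497-58199555, plus strand), Irgm2 (chr11:58214888-58214947, plus strand) and Tgtp1 (chr11:48992289-48992348, minus strand) are GTPase genes, and Gbp2 is at chr3:142620579-142620638, plus strand.
Gbp2: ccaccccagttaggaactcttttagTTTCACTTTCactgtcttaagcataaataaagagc
Ifit3: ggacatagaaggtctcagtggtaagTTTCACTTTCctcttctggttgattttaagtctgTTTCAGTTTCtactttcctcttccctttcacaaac
Igtp: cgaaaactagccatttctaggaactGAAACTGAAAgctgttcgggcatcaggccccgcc
Irgm2: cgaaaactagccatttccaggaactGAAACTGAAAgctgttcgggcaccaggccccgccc
Tgtp1: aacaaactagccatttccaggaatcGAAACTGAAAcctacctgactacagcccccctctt

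Proteasome genes encode the subunits and assembly factors of the complex that degrades ubiquitin-tagged proteins. Their medians were -0.06, -0.16 and -0.09 log2 over 48 members, of which 25 were lower at each time (52.1%, against 16.4% of all genes and 45% of 20 housekeeping genes), 0 higher at each time and 23 changed side. No member differed by 1.2-fold at each time and none passed limma's adjusted threshold, so the shift was small and spread over the list. The medians of the housekeeping genes were -0.05, -0.07 and -0.03 log2, so the 2 lists lay close together at 0 h. Psma6, of the outer ring of the core, stood at 67.33, 122.5 and 133.8 FPKM in WT at 0, 6 and 48 h and at 60.61, 98.11 and 123.3 FPKM in the libraries labelled Zak-deficient. Psmd6, of the regulatory particle, stood at 30.12, 51.66 and 68.91 FPKM against 27.38, 45.37 and 62.63 FPKM. Psmb10, of the immunoproteasome, stood at 32.75, 31.41 and 33.69 FPKM against 28.49, 28.96 and 29.91 FPKM. Psma6 and Psmd6 were higher after stimulation than at rest in both genotypes, by more than the genotypes differed, while Psmb10 stayed near its resting level.

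B cell markers were the third list. Of 15 markers, 7 reached a mean of 1 FPKM, with medians of 0.47, 0.22 and 0.19 log2. Among these 7, 6 were higher at each time (85.7%, against 11.1% of all genes) and 0 lower. The 6 were Cd79a, Fcer2a, Cd74 and the MHC class II genes H2-Aa, H2-Ab1 and H2-Eb1. Cd79b changed side and was lower at 6 h, at 1.12 FPKM against 1.48 FPKM in WT. The sum of all 15 markers was 13.52, 28.34 and 65.17 FPKM in WT at 0, 6 and 48 h and 23.44, 33.66 and 79.26 FPKM in the libraries labelled Zak-deficient. At 48 h most of it was Cd74, at 40.5 FPKM in WT and 45.54 FPKM in the library labelled Zak-deficient. The antigen receptor component Cd79a stood at 2.04, 1.76 and 2.20 FPKM against 3.79, 2.60 and 2.65 FPKM, and the MHC class II gene H2-Eb1 at 0.60, 1.28 and 0.97 FPKM against 1.06, 1.77 and 2.09 FPKM. H2-Eb1 averaged below 1 FPKM in WT. It reached the limit, and the count of 6, only through the libraries labelled Zak-deficient. The B cell factor Pax5 stayed at 0.31 FPKM or below. The surface marker Ms4a1 stayed at 1.42 FPKM or below and was lower at 6 h, at 0.26 FPKM against 0.38 FPKM in WT. In bulk RNA, more cells of a type and more RNA per cell cannot be told apart, and the part of these markers in the other differences was not tested.

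Other marker lists moved less evenly. Myeloid and dendritic markers summed to between 36.7 and 46.1 FPKM in WT and between 38.7 and 43.9 FPKM in the libraries labelled Zak-deficient. Stromal and liver markers summed to between 86.7 and 123.5 FPKM in WT and between 40.6 and 126.9 FPKM in the libraries labelled Zak-deficient. At 48 h the sums were 86.7 FPKM in WT and 40.6 FPKM in the library labelled Zak-deficient. Of these sums, Pecam1 alone gave 94.38, 54.46 and 38.53 FPKM in WT at 0, 6 and 48 h, against 92.59, 50.10 and 38.12 FPKM. The liver gene Alb was listed at 0 only in the 48 h library labelled Zak-deficient, against 6.29 to 13.0 FPKM in the other 5. Regulatory T cell genes had 7 of 16 members higher at each time (43.75%, against 11.1% of all genes) and 0 lower (against 16.4% of all genes). Their medians were 0.14, 0.01 and 0.08 log2, so they missed the rule at 6 h. Foxp3, their defining transcription factor, stood at 14.06, 40.31 and 5.90 FPKM in WT against 15.99, 44.67 and 7.65 FPKM.

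**Figure D5:**
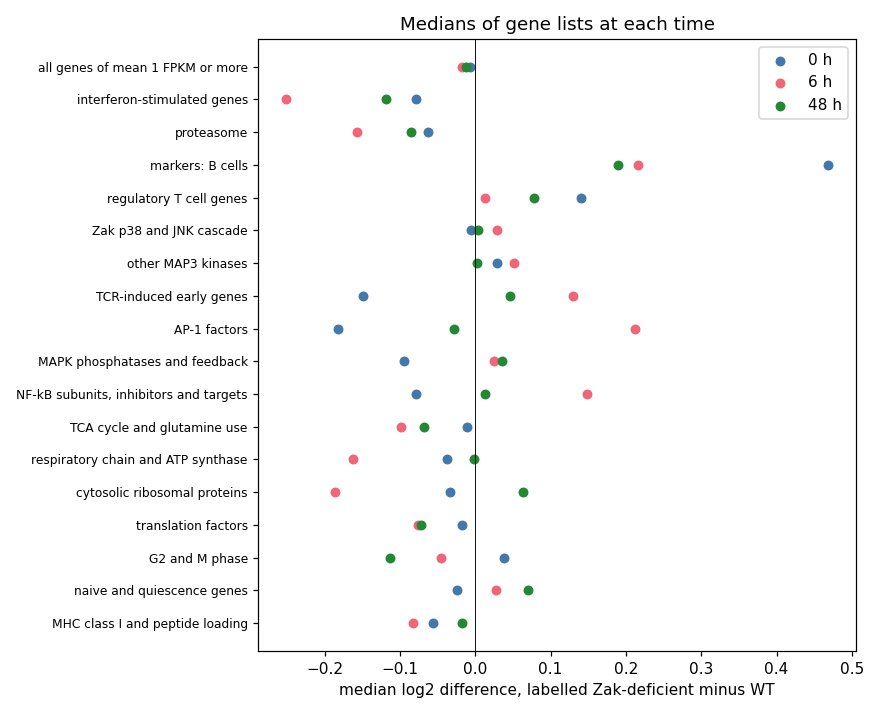
Median log2(FPKM+1) difference, labelled Zak-deficient minus WT, at 0, 6 and 48 h for all genes tested and for 17 gene lists. Interferon-stimulated genes (-0.08, -0.25 and -0.12) and the proteasome lie left of 0 at all 3 times, B cell markers right of it, and AP-1 factors cross it.

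The genes of the Zak, p38 and JNK cascade showed no common direction. Of 22 measured genes of this cascade, 2 were higher at each time (9.09%), 4 lower at each time (18.2%) and 16 changed side. Over all genes tested, 11.1% were higher and 16.4% lower at each time. The medians of the cascade were -0.01, 0.03 and 0.00 log2, with none of its genes apart by 1.2-fold. The lower ones included the kinase gene Map2k4, upstream of JNK, at 19.09, 13.68 and 15.77 FPKM in WT against 18.25, 12.26 and 14.61 FPKM, and Map2k6, upstream of p38, at 1.89, 1.04 and 2.29 FPKM against 1.73, 0.97 and 1.90 FPKM. The p38 substrate kinase gene Mapkapk3 stood at 30.50, 36.91 and 29.76 FPKM against 30.01, 36.25 and 24.62 FPKM. Of 14 other MAP3 kinase genes, 5 were higher (35.7%) and 2 lower (14.3%) at each time. Their medians were above 0 at each time, at 0.03, 0.05 and 0.002 log2, and the list missed the rule. FPKM report transcript levels and say nothing of kinase activity.

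The immediate response genes changed side between the first pair of times. AP-1 factors had medians of -0.18, 0.21 and -0.03 log2 at 0, 6 and 48 h, early genes of the T cell receptor response -0.15, 0.13 and 0.05, and NF-kB subunits, inhibitors and targets -0.08, 0.15 and 0.01. The signs at 0 h and 6 h were the same under all 3 scalings, while that of NF-kB at 48 h was not. Centring on GC content and length kept the signs at 0 h and 6 h and brought the medians at 6 h down to 0.08 for AP-1 factors, 0.08 for the early genes and 0.03 for the NF-kB list. Of 29 early response genes, 19 were lower at 0 h and higher at 6 h (65.5%, against 22.8% of all genes tested), and 1 went the other way. Cd69, an early activation marker and an exception chosen after its values were seen, stood at 17.13, 278.2 and 83.76 FPKM in WT against 12.01, 225.2 and 73.14 FPKM, lower at each time.

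Several metabolic and translation lists had more members lower than higher at each time without meeting the rule, as had all genes tested (16.4% lower and 11.1% higher). These were 14 lower and 1 higher of 35 genes of the TCA cycle and glutamine use, 23 and 3 of 87 of the respiratory chain, and 21 and 2 of 67 translation factors. Of 20 housekeeping genes, kept as a control list, 9 were lower (45%) and 1 higher at each time, a larger share than in any of these 3 lists, with medians of -0.05, -0.07 and -0.03 log2. The medians of the 3 lists at 0 h were -0.01, -0.04 and -0.02 log2, close to that of all genes. Cytosolic ribosomal proteins stood at -0.03, -0.19 and 0.06 log2, on both sides of 0.

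Genes with large differences were shared in part between the times. Of the 10347 genes tested, 73 were higher by 1.5-fold or more at 0 h, 81 at 6 h and 358 at 48 h. The share of 1 list found in another thus depends on the length of both. Of the 73 genes higher by 1.5-fold or more at 0 h, 49 were also that much higher at 48 h (67.1% of the 0 h list and 13.7% of the 358 at 48 h), whereas 12 were at 6 h (16.4% of the 0 h list and 14.8% of the 81 at 6 h). Among the lower genes, 20 were shared by 6 h and 48 h (22.2% of 90 and 25.3% of 79), and 6 by 0 h and 48 h. The largest mean differences that did not keep a side were those of Il11, Mup2 and Zfp457. Il11, a cytokine gene, stood at 11.30, 11.16 and 2.22 FPKM in WT and at 24.63, 11.11 and 92.73 FPKM in the libraries labelled Zak-deficient. Zfp457, a zinc-finger gene, stood at 8.51, 10.96 and 3.05 FPKM against 26.20, 8.65 and 45.64 FPKM. Both were higher at 0 h and 48 h and about level or lower at 6 h. Mup2, a liver-secreted urinary protein gene, stood at 23.87, 29.40 and 31.97 FPKM against 25.82, 18.15 and 0.16 FPKM.

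Leaving out 1 time showed how far the calls rest on the spread between times. The standard deviation of the differences, though not their median size, was largest at 48 h. Without 48 h, limma called 28 genes higher and 36 lower at a Benjamini-Hochberg adjusted p under 0.05. Of these 64 genes, 47 lay on the same side at 48 h, which that fit did not use, 33 of them by 1.2-fold or more, and 13 lay on chromosome 2 (20.3%). For comparison, 78 of all genes tested were higher and 142 lower by 1.2-fold or more at both 0 h and 6 h. Of those, 33 higher and 30 lower were also that far apart at 48 h. The fit without 48 h had a median of 36.9 degrees of freedom, against 6.12 with all 3 times. Its calls thus rest more on the spread pooled over genes. Without 0 h limma called 0 genes, with 322 at an unadjusted p under 0.05, and without 6 h it called 1 gene higher and 0 lower.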

How the data were processed

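The authors deposited FPKM per gene and library; per the submitters' processing notes Bowtie, RSEM and mm10 were used, with versions and settings not given in the sources used here. Differences were taken on log2(FPKM+1), with a pseudocount of 1 FPKM, no rescaling, and genes of mean 1 FPKM or more. limma 3.58.1 (R 4.3.3) was fitted on 6 libraries with time and genotype as terms and an intensity trend in eBayes, leaving 2 residual degrees of freedom from the spread of the genotype difference between times, and p-values were adjusted by Benjamini-Hochberg. The p-values measure only the spread between these libraries, which may be technical. The calculation was run on simulated data, where it called 195 of 200 genes changed by 1.5-fold and made 19 false calls. The simulated noise was independent and of 1 width per gene at all times, unlike these data. It therefore checks the calculation and not the calls made here. GENCODE M21 transcripts gave GC content, length (98.7% of tested genes) and 24-base sequences shared on the same strand, and centring used 20 bins each. Gene positions came from a RefSeq annotation. Symbols were found for 18326 genes, and 120 without one stayed in the counts. Named genes were Map3k20, the 12 per direction (mean 5 FPKM or more) with the largest difference at their weakest time, those called by limma, up to 3 members of each list described as alike and of the cascade and marker lists (not all are printed, and some genes are not reported here), near copies, and 3 genes that changed side. Gene models were passed over in naming. Members and lists were chosen with earlier results of these data known. Python 3.11.15 with pandas 2.3.3 was used.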

Additional observations from a re-analysis of the deposited data

How the results depend on the processing

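The medians of the 3 lists described as alike, and the mean differences of the named genes, kept their direction under the alternatives run. The balance of higher against lower genes did not, and the limma counts are small and moved. Medians of other lists near 0 changed side at single times. With common sum scaling, translation factors at 6 h went from -0.076 to 0.002 log2 and the TCA list at 0 h from -0.011 to 0.005. Against 2 genes higher and 1 lower, limma called 1 and 1 with a pseudocount of 5 FPKM, 0 and 0 without a filter (811 at an unadjusted p under 0.05), 3 and 3 with a filter at mean 5 FPKM, 1 and 0 without the trend, 4 and 1 with robust eBayes, 0 and 0 without time as a block (16 unadjusted), 1 and 0 with differences divided by their spread at each time, and 1 and 1 without genes that share most of their sequence. Leaving out 1 time gave 0 to 28 higher and 0 to 36 lower. Scalings kept 2 and 1. Genes 1.2-fold or more apart at each time, 33 higher and 30 lower, numbered 56 and 70 with a pseudocount of 0.1 FPKM, 14 and 11 with 5 FPKM, 15 and 18 with the filter at mean 5 FPKM, 102 and 166 at 1.1-fold and 9 and 5 at 1.5-fold. The count without 1 time ranged from 78 to 201 higher and from 58 to 142 lower, as it asks for 2 times only. The genotype's share of the variation was 1.44% with the filter at mean 5 FPKM, against 2.21%. The correlation of 6 h with 48 h, 0.04, was -0.01 without genes that share most of their sequence. The interferon list's mean distance from all genes, -0.138, was -0.0932 with a pseudocount of 5 FPKM, where it missed the rule at 48 h. The proteasome list met the rule under each alternative. After centring on GC content and length, 19 of its 48 members were lower at each time, against 25 without it. Of all genes, 14.35% were lower at each time in that setting. B cell markers had 2 members at mean 5 FPKM and no value there. At 1.5-fold, 35.7% of the genes apart lay on chromosome 2. Of 639 alternative values over 47 named genes, 606 kept their side of the threshold, 14 lost it and 19 gained it. Centring on GC content and length and the setting without genes that share most of their sequence were chosen after seeing the data where not planned for a result. Pairing was by time, and the fit without time as a block is given above. No replicate block was fitted, since the replicate number is 1 in every group.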
